A study of Mus musculus with 8 samples.

Results

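Malat1, Neat1, Gas5, Snhg1, Snhg12, Zfas1, Tug1 and Miat are 8 long noncoding RNAs that were chosen by name, and their levels were followed in the heart of newborn mice. The deposited tables list 80155 loci, of which 39614 carry a gene symbol, and 5 of the 8 RNAs have a locus under their own symbol. Zfas1 was found under its older symbol 1500012F01Rik. Snhg1 and Miat were found by position, at loci that carry the names of sequenced clones. RNA was sequenced from hearts of male Hsd:ICR(CD-1) mice, an outbred stock, at postnatal day 1 (P1, n = 4) and postnatal day 7 (P7, n = 4), stages that the study contrasted because the mouse heart loses its capacity to regenerate between them. The labels name no engineered allele and no treatment for either stage. Each library was made from the total RNA of 1 whole heart without its atrial appendages, after depletion of ribosomal RNA, so RNAs without a poly(A) tail could enter it. The level is given as FPKM, a count of sequenced fragments at a locus corrected for transcript length and for the size of the library. The files hold no counts, so the number of fragments behind a value is unknown. In such bulk tissue, fewer cells of a type and less RNA per cell cannot be told apart.

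Malat1 and Neat1 lie next to each other in the genome and stay in the nucleus. Malat1 is enriched in nuclear speckles, the bodies where splicing factors gather, and Neat1 is the scaffold of paraspeckles, bodies that hold RNA-binding proteins and certain RNAs. Tug1 is found in nucleus and cytoplasm, and Miat is known as an RNA associated with myocardial infarction. Gas5, Snhg1, Snhg12 and Zfas1 are host genes: the spliced product is not translated into a known protein and is in several cases degraded by nonsense-mediated decay, while the introns give rise to small nucleolar RNAs (snoRNAs). Most box C/D snoRNAs guide methylation, and most box H/ACA snoRNAs guide pseudouridylation, of ribosomal RNA. Several host genes start with a run of pyrimidines, as do the messenger RNAs of ribosomal proteins.

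The genes are placed on the mouse genome GRCm38. Malat1 occupies positions 5795690 to 5802672 of chromosome 19 and Neat1 positions 5823223 to 5845480 of the same chromosome, both on the minus strand. Tug1 lies on chromosome 11 from 3639614 to 3649103 and Miat on chromosome 5 from 112213228 to 112228948, again on the minus strand. The 4 hosts lie on the plus strand. Snhg1 covers 8723470 to 8728141 of chromosome 19 and Snhg12 covers 132308649 to 132311441 of chromosome 4. The deposited spans of Gas5 (chromosome 1, 160978606 to 161038539) and Zfas1 (chromosome 2, 167035793 to 167065862) are wider than the genes themselves, since neighbouring genes were given the same span. In RefSeq, Gas5 runs from 161034601 to 161038539 and Zfas1 from 167062934 to 167065862.

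The snoRNAs set the hosts apart. GENCODE M21 places 9 snoRNA genes in Gas5, 8 in Snhg1, 4 in Snhg12 and 3 in Zfas1, counted by symbol, and each lies in an intron of at least 1 transcript of its host. Box C (TGATGA, starting within the first 13 bases) and box D (CTGA, starting within the last 16 bases) were searched on the snoRNA's own strand. Both were found in 7 of the 9 snoRNAs of Gas5, 5 of the 8 of Snhg1, 1 of the 4 of Snhg12 and 3 of the 3 of Zfas1. Over all GENCODE snoRNA transcripts of 60 to 150 bases the share was 20.8% (301 of 1449). The other 3 snoRNAs of Snhg12 have symbols of the H/ACA class (Snora16a, Snora44 and Snora61). For each host 1 C/D snoRNA is shown, to make the kind of RNA visible that its introns hold. The sequences are from GENCODE M21, with box C and box D in capitals.

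Snord47 in Gas5, chr1:161038082-161038158, plus strand: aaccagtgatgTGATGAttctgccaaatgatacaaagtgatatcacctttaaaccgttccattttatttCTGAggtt

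Gm25855 in Snhg1, chr19:8723993-8724064, plus strand: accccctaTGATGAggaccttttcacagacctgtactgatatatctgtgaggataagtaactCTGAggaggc

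Snord99 in Snhg12, chr4:132310691-132310764, plus strand: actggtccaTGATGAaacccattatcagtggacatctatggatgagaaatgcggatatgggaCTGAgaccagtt

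Snord12 in Zfas1, chr2:167065276-167065365, plus strand: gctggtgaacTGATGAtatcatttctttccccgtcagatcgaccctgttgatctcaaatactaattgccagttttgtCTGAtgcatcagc

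The start sites were read from the RefSeq promoter table (GRCm38.p6), from 30 bases before to 30 bases after each annotated start. On the strand of the gene, a run was counted where a C within 2 bases of the start was followed by at least 4 further pyrimidines. Gas5 has 2 annotated starts, and the downstream one holds such a run, as do the starts of Snhg12 and Miat. The upstream start of Gas5 and the starts of Malat1, Snhg1, Zfas1 and Tug1 hold none in this window. Of all 32851 RefSeq windows, 8.96% hold a run, and of the 72 windows of ribosomal protein and translation factor genes known for such a start, 33.3%. Neat1 was not among the promoters used here. The windows of 2 hosts with a run and of Malat1 and Tug1, whose levels moved together between hearts, are shown, with the run in capitals.

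Gas5, downstream start, chr1:161035136-161035195, plus strand: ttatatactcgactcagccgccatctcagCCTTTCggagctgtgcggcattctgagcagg

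Snhg12, chr4:132308648-132308707, plus strand: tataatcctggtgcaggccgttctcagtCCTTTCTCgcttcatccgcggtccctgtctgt

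Malat1, chr19:5802643-5802702, minus strand: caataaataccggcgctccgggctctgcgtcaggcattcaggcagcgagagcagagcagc

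Tug1, chr11:3648785-3648844, minus strand: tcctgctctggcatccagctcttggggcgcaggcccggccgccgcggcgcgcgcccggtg

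The 8 RNAs ranged from 10035 FPKM (Malat1 in P1 replicate 4) to 0.0212 FPKM (Miat in P7 replicate 3). Per length, Malat1 had the highest level (8-heart mean 7181 FPKM), followed by Snhg1 (605 FPKM), Gas5 (268 FPKM) and Neat1 (58.8 FPKM). Tug1 (27.9 FPKM), Snhg12 (27.6 FPKM) and Zfas1 (26.2 FPKM) came next, and Miat was lowest (0.0882 FPKM). Malat1 exceeded Snhg1, Gas5 exceeded Neat1 and Zfas1 exceeded Miat in 8 of 8 hearts with no overlap of the ranges. Snhg1 was above Gas5 in 7 of 8 hearts, and Neat1 was above Tug1 in 8 of 8 hearts although the ranges over hearts overlapped. Tug1 and Snhg12, and Snhg12 and Zfas1, were in this order in 4 of 8 hearts each, so these 3 neighbours did not differ beyond their spread.

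**Figure D1:**
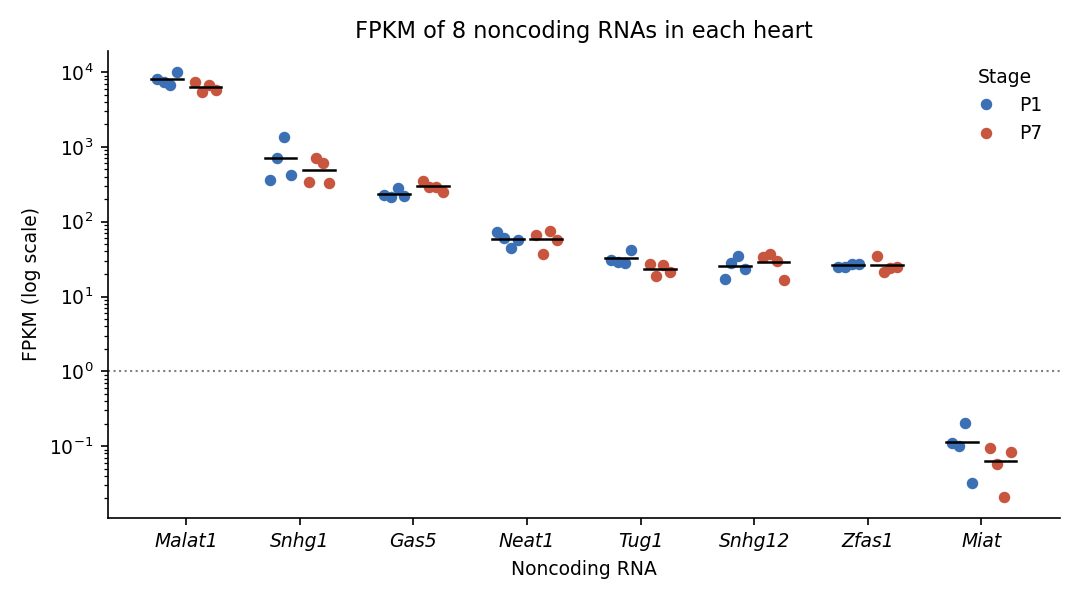
FPKM of the 8 noncoding RNAs (log axis) in each of the 4 P1 hearts (blue) and 4 P7 hearts (red), with a black bar at each stage's mean and a dotted line at 1 FPKM, the level a locus had to reach in at least 1 heart to be tested. Malat1 lies between 5413 and 10035 FPKM, Miat stays below the line, and Tug1 is the RNA for which each P7 heart lies below each P1 heart.

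The stages were compared with limma on log2(FPKM + 1), with Benjamini-Hochberg adjustment over all 43172 tested loci. A locus counted as differentially expressed where the adjusted p was under 0.05 and the stage means differed at least 1.5-fold. Of the 17960 tested loci with a symbol, 8.14% met this (7.74% higher and 0.401% lower in P7). Of the 8 noncoding RNAs, 7 reached 1 FPKM in at least 1 heart and were tested, and 0 of the 7 were differentially expressed by limma. At an unadjusted p under 0.05, 1 of the 7 (Tug1) passed, against 29.7% of the tested loci with a symbol. The differences were negative for Malat1, Neat1, Snhg1, Zfas1 and Tug1 and positive for Gas5 and Snhg12, and their median was -0.018 on the log2 scale. The median over the tested loci with a symbol was 0.19, of which 12147 were positive and 5813 negative, and after median-ratio scaling of the hearts it was 0.0095. Changes are therefore given on the deposited scale with the scaled value beside them where the call or direction differs.

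Tug1 was the member with the most regular difference. Its FPKM was 30.6, 29.1, 27.7 and 41.9 in P1 replicates 1 to 4, and 26.8, 19.1, 26.7 and 21.4 in P7 replicates 1 to 4. Every P7 heart lay below every P1 heart, though the closest pair, P1 replicate 3 and P7 replicate 1, was separated by less than 1 FPKM. Among the tested loci with a symbol, 2.69% lay wholly below P1 in this way and 17.3% wholly above. The means were 32.3 ± 6.48 and 23.5 ± 3.88 FPKM (SD, n = 4 each), and the log2 difference was -0.44 with a standard error of 0.20 and a 95% interval of -0.87 to -0.0062 (limma adjusted p = 0.264, exact permutation test two-sided p = 0.0286, the smallest that 4 against 4 hearts allow). That difference did not pass the adjusted threshold.

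The call for Tug1 turned on the scaling of the hearts. After median-ratio scaling the means were 34.7 FPKM in P1 and 21.4 FPKM in P7, the log2 difference was -0.67 (standard error 0.10, 95% interval -0.89 to -0.46), and Tug1 was differentially expressed (limma adjusted p = 0.00697). With that scaling 3.67% of the tested loci with a symbol were called lower in P7, against 0.401% without it, and the calls split into 1447 higher and 660 lower instead of 1390 and 72. Quantile normalization, under which 3.31% were called lower, gave Tug1 a log2 difference of -0.70 and likewise a call (limma adjusted p = 0.00739). With a correction for transcript GC content it was -0.16 (limma adjusted p = 0.656). Under each of these settings, and with each heart left out in turn (-0.51 to -0.31), the sign was negative.

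Malat1 was among the 12 loci with a symbol of highest FPKM in each of the 8 hearts. Its level was 7998, 7325, 6746 and 10035 FPKM in P1 replicates 1 to 4, and 7356, 5413, 6821 and 5756 FPKM in P7 replicates 1 to 4. P1 replicate 4 was the highest heart, and P7 replicates 2 and 4 were the lowest, while the remaining 5 hearts of both stages were interleaved. The means were 8026 ± 1434 FPKM in P1 and 6337 ± 906 FPKM in P7 (SD, n = 4), a log2 difference of -0.34 with a 95% interval of -0.90 to 0.23 (limma adjusted p = 0.470, exact permutation p = 0.143). The interval covers a fall to 0.535 of the P1 level as well as a rise to 1.17 times that level.

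Expressed as a share of the FPKM summed over loci with a symbol, Malat1 held 1.49%, 1.30%, 1.17% and 1.78% in the P1 hearts and 1.11%, 0.929%, 0.945% and 0.985% in the P7 hearts. Each P7 heart was below each P1 heart on this scale (exact permutation p = 0.0286, 0.0858 after Benjamini-Hochberg adjustment over the 6 heart-level measures compared). The summed FPKM of loci with a symbol, the denominator, ranged from 538300 to 574980 in P1 hearts and from 582540 to 721650 in P7 hearts. The part of the denominator in the lower share was not tested. A second locus, Gm20417, was given exactly the span of Malat1. It had 2183 ± 213 FPKM in P1 and 1651 ± 195 FPKM in P7 (SD, n = 4), which was 22.3% to 29.9% of the Malat1 level over the 8 hearts. The strand setting of the counting is not given in the sources used here, so fragments of these overlapping loci cannot be told apart with certainty.

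Neat1, the neighbour of Malat1, showed no comparable pattern. Its FPKM was 72.2, 61.3, 44.0 and 57.3 in P1 replicates 1 to 4 and 67.2, 37.5, 74.4 and 56.5 in P7 replicates 1 to 4. The highest and the lowest heart were both P7 hearts, and the stages overlapped throughout. The means were 58.7 ± 11.6 and 58.9 ± 16.03 FPKM (SD, n = 4), with a log2 difference of -0.018 and a 95% interval of -0.54 to 0.50 (limma adjusted p = 0.968, exact permutation p = 0.943). Changes of up to 1.42-fold upwards or to 0.687 of the P1 level lie within that interval.

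Within a heart, the ratio of 2 RNAs does not depend on the scaling between hearts. Malat1 exceeded Neat1 by a factor of 111, 119, 153 and 175 in P1 replicates 1 to 4 and by 110, 144, 91.7 and 102 in P7 replicates 1 to 4. On the log2 scale the ratio of Neat1 to Malat1 was -7.10 ± 0.31 in P1 and -6.78 ± 0.28 in P7 (SD, n = 4), and the stages overlapped (exact permutation p = 0.171, adjusted over the 6 measures 0.257). The ratio of Gas5 to Malat1 did separate the stages: it was -5.08 ± 0.38 in P1 and -4.41 ± 0.15 in P7 on the log2 scale (SD, n = 4), 0.67 higher in P7 (exact permutation p = 0.0286, adjusted 0.0858). Each P7 heart had a higher Gas5 to Malat1 ratio than each P1 heart, with the closest pair at -4.58 and -4.54. This ratio sets the tested RNA of largest positive log2 difference (Gas5, 0.33) against one with a negative difference (Malat1, -0.34). Of the ratios, only that of Neat1 to Malat1 was planned and was repeated with each heart left out.

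**Figure D2:**
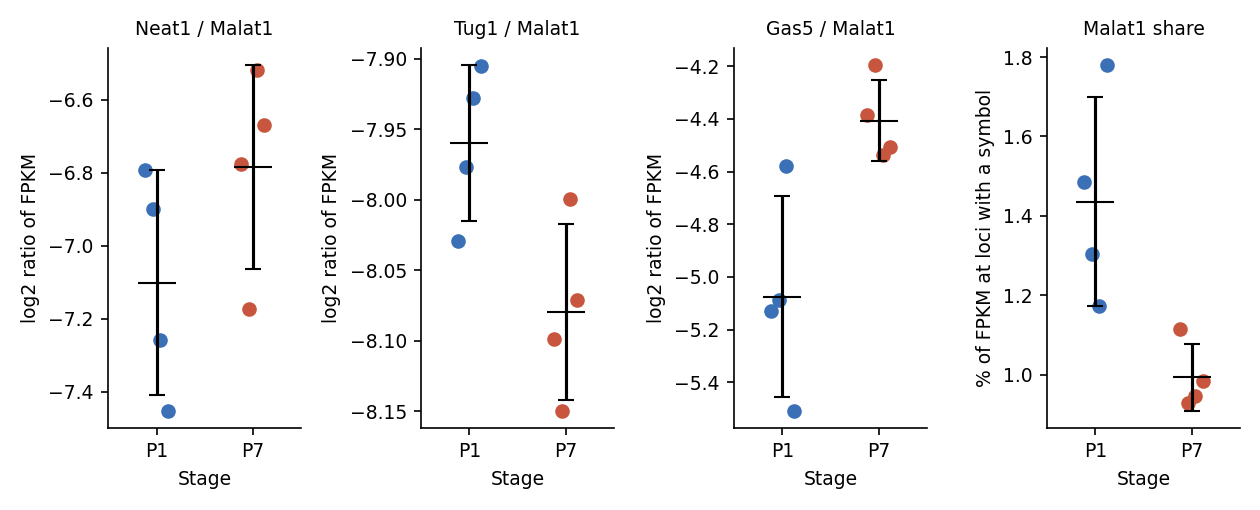
Log2 ratios of FPKM within each heart for Neat1, Tug1 and Gas5 against Malat1, and the share of Malat1 in the FPKM of loci with a symbol (percent), for 4 P1 hearts (blue) and 4 P7 hearts (red), each vertical axis covering only the range of its own values. Black bars show the mean and SD. The Gas5 ratio is higher and the Malat1 share lower in each P7 heart, and the Neat1 ratios overlap.

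Tug1 followed Malat1 from heart to heart. The log2 ratio of Tug1 to Malat1 kept to the narrow range from -8.15 to -7.91 over the 8 hearts, with means of -7.96 ± 0.06 in P1 and -8.08 ± 0.06 in P7 (SD, n = 4, exact permutation p = 0.0571, adjusted 0.114). Over the 8 hearts the log2(FPKM + 1) values of both RNAs had a Pearson correlation of 0.984 and a Spearman correlation of 0.881, and the Pearson correlation was 0.987 after median-ratio scaling. Without the 2 hearts farthest from the median of Malat1, P1 replicate 4 and P7 replicate 2, it was 0.936 over 6 hearts. All points of such a correlation share the library of each heart, and each stage alone has too few hearts for a value of its own. The correlation of Neat1 with Malat1 was 0.486, and of Neat1 with Tug1 0.436.

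Of 7797 other loci with a symbol of their own and a mean of at least 5 FPKM, 5 (0.0641%) correlated with Malat1 at least as closely as Tug1 did, and the median correlation with Malat1 over these loci was 0.10. The closest to Malat1 were Tmx4 (0.992), Ccdc141 (0.989) and Zfp397 (0.986). Elp2, a subunit of the Elongator complex (0.987), Prkaa2, a catalytic subunit of the energy sensor AMPK (0.987), and Smc6, of the SMC5/6 complex (0.986), were closest to Tug1. Neat1 was followed most closely by Slc25a40 (0.958), Cpeb4 (0.945) and Sestd1 (0.942). None of these 9 loci was differentially expressed by limma, with adjusted p from 0.181 (Prkaa2) to 0.893 (Sestd1). These correlations describe 8 hearts and carry no test.

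**Figure D3:**
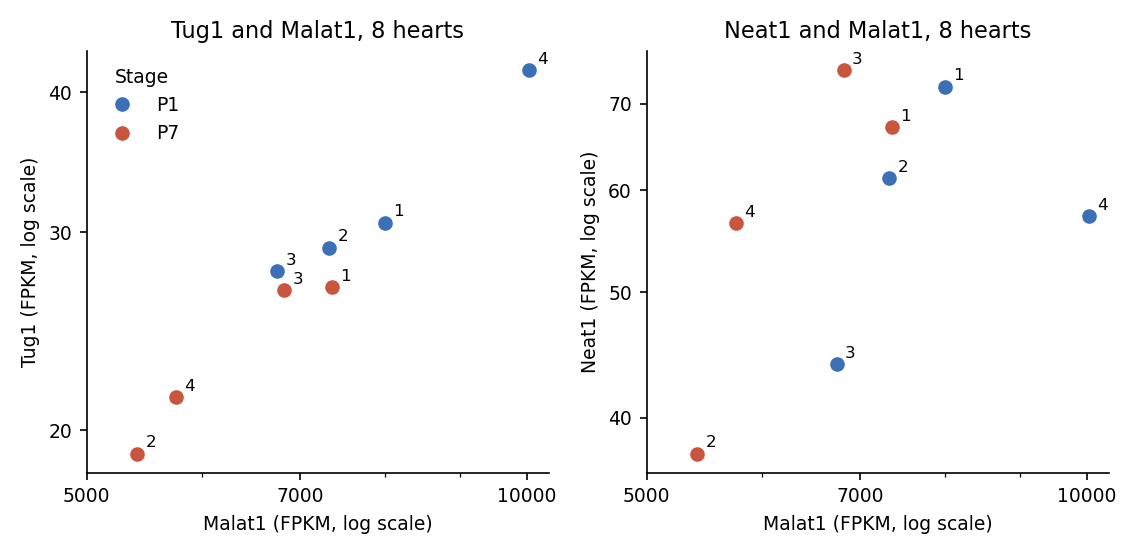
FPKM of Tug1 (left) and Neat1 (right) against FPKM of Malat1 in the same heart, both axes logarithmic, P1 hearts in blue and P7 hearts in red with their replicate numbers. The Tug1 points lie close to 1 line through both stages (Pearson 0.984 over 8 hearts), and the Neat1 points scatter (0.486).

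Miat was at the floor of the measurement. Its locus had 0.111, 0.0995, 0.206 and 0.0318 FPKM in P1 replicates 1 to 4 and 0.0946, 0.0571, 0.0212 and 0.0837 FPKM in P7 replicates 1 to 4. No heart reached 1 FPKM, so Miat was not tested across loci, and the exact permutation test of its values gave p = 0.257 with overlapping stages. Its rank was between 21145 and 24170 among the 39614 loci with a symbol, so Miat was not abundant in these libraries.

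Gas5 was the snoRNA host closest to a separation of the stages. Its FPKM was 229, 215, 282 and 221 in P1 replicates 1 to 4 and 352, 295, 294 and 253.2 in P7 replicates 1 to 4. P1 replicate 3 was above P7 replicate 4, and in all other pairs the P7 heart was higher. The means were 237 ± 31.0 and 299 ± 40.4 FPKM (SD, n = 4), with a log2 difference of 0.33 and a 95% interval of -0.096 to 0.76 (limma adjusted p = 0.378, exact permutation p = 0.0571). The difference was 0.089 after median-ratio scaling and 0.59 after GC correction, where the adjusted p was 0.148 (limma). The loci Zbtb37 (6.64 to 7.19 FPKM as stage means) and Serpinc1 (0.177 to 0.315 FPKM), which share the deposited span of Gas5, were far below it. The Gas5 locus also joins 9 snoRNA names. Its FPKM, and its ratio to Malat1, therefore cannot be ascribed to the spliced host alone.

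Among the 7 tested RNAs, Snhg1 had the widest spread. It had 360, 721, 1357 and 427 FPKM in P1 replicates 1 to 4 and 336, 705, 609 and 329 FPKM in P7 replicates 1 to 4. P1 replicate 3 stood at 4.12 times the lowest heart, P7 replicate 4 and the values of both stages were interleaved below it. The coefficient of variation was 63.6% in P1 and 38.7% in P7, at percentiles 97.2 and 93.5 among 9262 loci with a symbol and a mean of at least 5 FPKM, whose medians were 22.8% and 19.6%. Correspondingly the log2 difference of -0.42 had a 95% interval of -1.28 to 0.45 (limma adjusted p = 0.547, exact permutation p = 0.400), so a fall to 0.411 of the P1 level and a rise to 1.37 times that level are both within it. Without P1 replicate 3 the log2 difference was -0.041.

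The locus read as Snhg1 joins 1 clone name with 8 snoRNA names, and the closest loci to it over the 8 hearts were Pkib (Pearson 0.928) and the snoRNA loci Snora7a (0.858) and SNORD10 (0.850). How much of its FPKM came from snoRNAs and how much from the spliced host cannot be told apart at the level of a locus. The same holds for Gas5, Snhg12 and Zfas1, whose loci join 9, 4 and 2 snoRNA names. Over 1421 loci that carry snoRNA names alone, the summed FPKM was 14917 to 38615 per heart, with no separation of the stages (exact permutation p = 0.971), and its correlation with Snhg1 was -0.06 on the log2 scale over 8 hearts. Snhg1 also varied with the number of loci at or above 1 FPKM (Pearson 0.729 over 8 hearts), with 28662 in P1 replicate 3 against 20269 to 22292 in the other hearts. Its part in the spread was not tested.

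Snhg12 had 17.02, 28.0, 34.9 and 23.6 FPKM in P1 replicates 1 to 4 and 34.1, 36.6, 29.9 and 16.6 FPKM in P7 replicates 1 to 4. The lowest heart of each stage lay near 17 FPKM and the highest near 35, so the stages overlapped over nearly the whole range. The log2 difference was 0.16 with a 95% interval of -0.44 to 0.75 (limma adjusted p = 0.736, exact permutation p = 0.600), and it changed sign to -0.078 after median-ratio scaling. Over the 8 hearts the Pearson correlation of Snhg12 was 0.616 with Gas5, 0.635 with Snhg1 and 0.104 with Zfas1. After median-ratio scaling these values were 0.783, 0.807 and 0.452. Among the other host pairs, Gas5 and Snhg1 went from 0.0522 to 0.609, Gas5 and Zfas1 from 0.35 to 0.547, and Snhg1 and Zfas1 from -0.334 to 0.427. The scaling divides all loci of a heart by the same factor, and each pair of hosts rose with it. These correlations carry no test.

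On the deposited scale Zfas1 was nearly constant in P1, with 25.1, 24.9, 26.9 and 27.5 FPKM in replicates 1 to 4. In P7 it was more variable, with 34.8, 21.2, 24.1 and 24.96 FPKM. Its coefficient of variation of 4.997% in P1 was at percentile 1.33 of the 9262 loci, and in P7 it was 22.5%, at percentile 64.3. The median ratios used to scale the hearts ran from 0.801 to 1.16 within P1, and the spread of Zfas1 after scaling was not examined. The highest and the lowest value both belonged to P7 hearts. Znfx1, which was given the same deposited span, had stage means of 3.44 and 5.51 FPKM. The log2 difference of Zfas1 was -0.014 with a 95% interval of -0.43 to 0.40 (limma adjusted p = 0.969, exact permutation p = 0.914). Rsf1, a chromatin remodelling subunit, came closest to it over the 8 hearts (Pearson 0.972), and neither passed the test between the stages (limma, Rsf1 log2 difference 0.033, adjusted p = 0.920). For Gas5 the closest loci were Serinc3 (0.952), Med13l (0.932) and Cd82 (0.930), and for Snhg12 they were Gm15466 (0.946), Sgip1 (0.823) and Mecom (0.812).

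**Figure D4:**
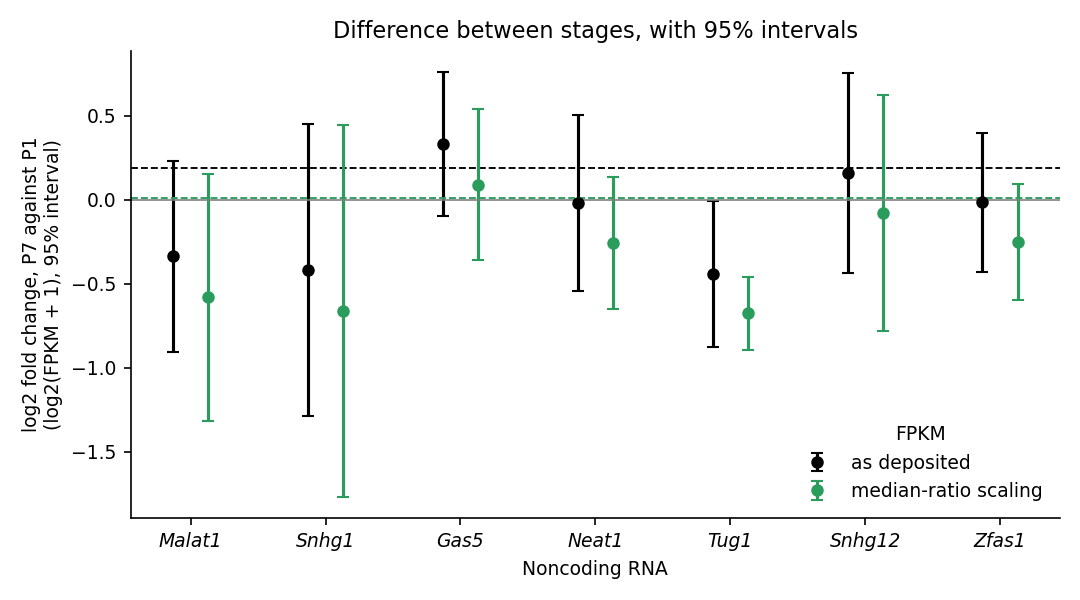
Log2 difference between P7 and P1 on the log2(FPKM + 1) scale for the 7 tested RNAs, with 95% intervals from limma, for FPKM as deposited (black) and after median-ratio scaling of the hearts (green); dashed lines mark the median of the tested loci with a symbol (0.19 and 0.0095). The intervals of all RNAs except Tug1 include 0 under both scalings, and Snhg12 changes sign between them.

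Genes that act with these RNAs were examined as lists, described by counts and medians. Of 18 paraspeckle proteins tested, 0 were differentially expressed by limma, and their median log2 difference was 0.023. Hnrnpk (527 FPKM in P1, 548 in P7) and Sfpq (178 and 180 FPKM), both paraspeckle proteins, had the highest levels and had log2 differences of 0.053 and 0.018. Of the 18, 2 lay wholly below P1 in the P7 hearts and 0 wholly above. Over all tested loci with a symbol these shares were 2.69% and 17.3%. The 2 were Tardbp and Hnrnpa1, named after their values were seen, with log2 differences of -0.57 (limma adjusted p = 0.113) and -0.61 (0.0926). Both were called lower after median-ratio scaling (limma adjusted p = 0.0146 and 0.00782), as were 3.67% of all tested loci with a symbol. Among 30 proteins of nuclear speckles and splicing, the compartment of Malat1, 0 were differentially expressed by limma and the median log2 difference was 0.064. The highest levels were those of the splicing regulator Qk (239 and 260 FPKM) and of Srsf5 (206 and 210 FPKM), a splicing factor of the SR family. The splicing kinase Prpf4b, named after its values were seen, had a log2 difference of -0.33 (limma adjusted p = 0.378). It was called lower after median-ratio scaling (-0.56, limma adjusted p = 0.0126), against the same 3.67% of all tested loci with a symbol.

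The proteins that package and mature snoRNAs gave a mixed picture. Of 18 tested, 0 were differentially expressed by limma, 9 had a positive log2 difference, and the median was -0.014. Nhp2l1, which binds box C/D snoRNAs, had 62.3 FPKM in P1 and 61.0 in P7, and Nop10, of the H/ACA particle, had 36.4 and 42.8 FPKM. Nop58, a core protein of C/D particles named after its values were seen, had 31.4 ± 3.32 FPKM in P1 and 19.1 ± 3.29 in P7 (SD, n = 4), a log2 difference of -0.70 that narrowly missed the adjusted threshold (limma adjusted p = 0.0570). After median-ratio scaling Nop58, Dkc1 and Tgs1 were called lower (adjusted p = 0.00592, 0.0108 and 0.0282, limma). With that scaling 3.67% of the tested loci with a symbol were called lower. On the deposited scale 2 of the 18 lay wholly below P1 in the P7 hearts and 2 wholly above. Over all tested loci with a symbol, 2.69% lay wholly below and 17.3% wholly above. Ruvbl2 and Nhp2, the 2 of the 18 above, had log2 differences of 0.78 and 0.53 (limma adjusted p = 0.0844 and 0.182). Pih1d1 had 0.87 (limma adjusted p = 0.106). These 3 were also named after their values were seen.

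Of 16 factors of nonsense-mediated decay, the pathway that removes several spliced hosts, 0 were differentially expressed by limma, while 14 had a positive difference and the median was 0.22. Magoh (117 and 138 FPKM) and Casc3 (43.8 and 70.9 FPKM), both of the exon junction complex, had the highest levels. The Casc3 value is that of a locus that also carries the symbol Msl1. For the messenger RNAs with a terminal oligopyrimidine start, mostly of ribosomal proteins, 0 of 89 tested were differentially expressed by limma, 67 had a positive difference and the median was 0.22. Rplp1 had 2274 FPKM in P1 and 2774 in P7, with a log2 difference of 0.32, and Rplp2 had 1171 and 1348 FPKM, with a log2 difference of 0.24. Npm1, which encodes nucleophosmin, and Rps4x, of the small ribosomal subunit, both named after their values were seen, lay wholly below P1 in the P7 hearts, with log2 differences of -0.53 and -0.44 (limma adjusted p = 0.227 and 0.277). Both were called lower after median-ratio scaling (limma adjusted p = 0.0106 and 0.0165), as were 3.67% of all tested loci with a symbol. On the deposited scale 2 of the 89 lay wholly below P1 in the P7 hearts and 7 wholly above. Over all tested loci with a symbol these shares were 2.69% and 17.3%. The medians of these 2 lists were close to the 0.19 of all tested loci with a symbol. At an unadjusted p under 0.05 the counts were 2 of the paraspeckle proteins, 2 of the speckle and splicing proteins, 5 of the snoRNP proteins, 5 of the decay factors and 13 of the oligopyrimidine messenger RNAs, to be read against the 29.7% of all tested loci with a symbol.

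Of 18 further snoRNA hosts, 13 had a locus and 11 were tested, and 0 were differentially expressed by limma (3 at an unadjusted p under 0.05, where 29.7% of the loci with a symbol passed). Their median log2 difference was -0.30, and 3 of the 11 were positive. Taf1d, which encodes a subunit of an RNA polymerase I factor and hosts several snoRNAs, had 590 ± 198 FPKM in P1 and 386 ± 149 in P7 (SD, n = 4), with a log2 difference of -0.64 (limma adjusted p = 0.295). Snhg3 had 106 and 111 FPKM, at a locus that also carries the names of the gene Rcc1 and the snoRNA Snora73a. Snhg18, named after its values were seen, was the 1 host of the 11 whose P7 hearts lay wholly above P1. Of all tested loci with a symbol, 17.3% did so. Snhg18 had 7.54 ± 0.87 and 12.1 ± 1.67 FPKM (SD, n = 4), with a log2 difference of 0.61 (limma adjusted p = 0.0797).

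Of 37 other long noncoding RNAs, 22 had a locus and 15 were tested. Of the 15, 1 was called, while 8.14% of all tested loci with a symbol were called. Pvt1, an RNA that hosts microRNAs next to Myc, was the 1 called RNA, at 2.39 ± 0.15 FPKM in P1 and 1.07 ± 0.31 FPKM in P7 (SD, n = 4), a log2 difference of -0.72 (limma adjusted p = 0.0463). It was found by position and lost the call under 12 of 19 alternative settings, while 1 further setting did not test it. H19, an imprinted RNA of fetal tissue, had 1576 ± 529 FPKM in P1 and 1675 ± 239 in P7 (SD, n = 4) and did not pass (log2 difference 0.15, limma adjusted p = 0.761). The median over the 15 was -0.090.

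**Figure D5:**
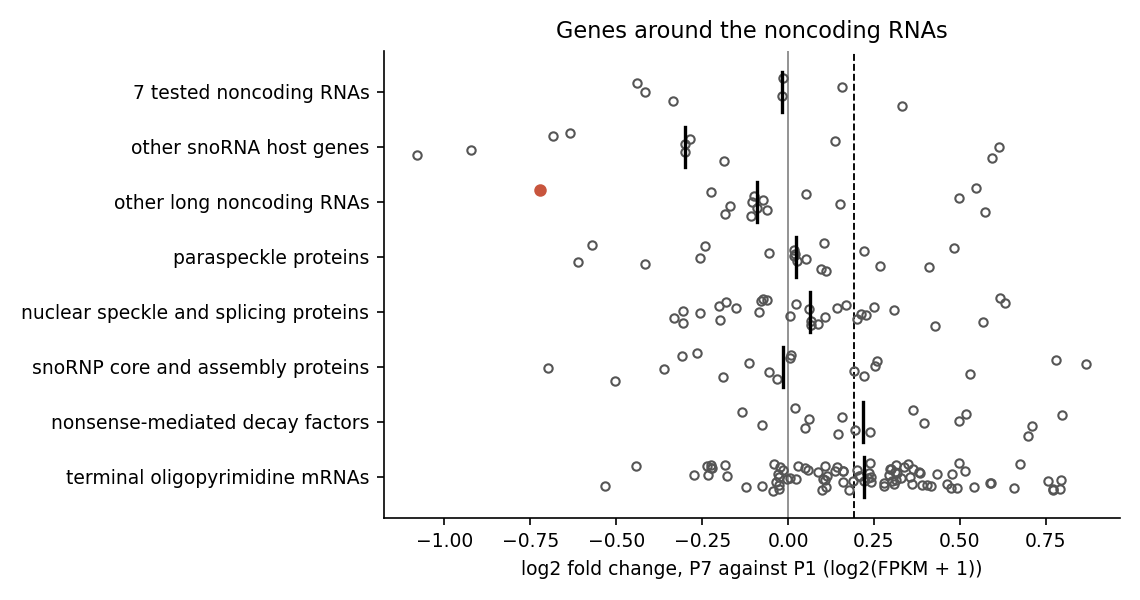
Log2 difference between P7 and P1 on the log2(FPKM + 1) scale for each tested gene of 7 lists and for the 7 tested noncoding RNAs (circles), with a black bar at each median and a dashed line at 0.19, the median of all tested loci with a symbol. The filled red circle is Pvt1, the 1 gene shown here that was differentially expressed; the medians of the tested noncoding RNAs, other snoRNA hosts, other long noncoding RNAs, paraspeckle, speckle and snoRNP proteins lie left of the dashed line.

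Some markers of cell types differed between the stages while the 8 RNAs were compared. Markers said to have risen were called higher in P7 by limma, as were 7.74% of all tested loci with a symbol. The cardiomyocyte markers Myh6, Actn2, Tnnt2, Tnni3, Ryr2 and Pln summed to 5928 to 12250 FPKM in P1 and 9707 to 14300 FPKM in P7, with 0 of 6 called by limma (2 at an unadjusted p under 0.05), and none of the 6 was listed at 0. Of 6 fibroblast markers, 4 rose (Col1a1, Dcn, Lum and Tcf21), and their summed level was 450 to 812 FPKM in P1 and 1048 to 1301 in P7. Of 6 endothelial markers, 3 rose (Egfl7, Tie1 and Cdh5), with sums of 123 to 196 and 241 to 362 FPKM. Among leukocyte markers Lyz2 rose, with sums of 28.0 to 33.3 and 51.9 to 74.8 FPKM, and 1 of 6 mural and 1 of 4 tested nerve markers (Pdgfrb and Dbh) rose. Red cell markers (sums of 1614 to 3794 and 3705 to 4981 FPKM) and markers of cycling cells (110 to 144 and 75.8 to 173 FPKM) had 0 called by limma, with 5 and 1 at an unadjusted p under 0.05, against the same 29.7% of all tested loci with a symbol. After median-ratio scaling further markers were called by limma, and those given here were named after their values were seen. With that scaling 1447 of the 17960 tested loci with a symbol were called higher and 660 lower. Top2a, of cycling cells (log2 difference -0.83, adjusted p = 0.0354), Emcn, of endothelium (-0.66, 0.0106), and Acta2, of mural cells (-1.15, 0.0267), were lower in P7, and Col1a2, of fibroblasts (0.67, 0.0421), was higher. Emcn ran against the 3 endothelial markers that rose: its P7 hearts lay wholly below P1 also on the deposited scale, at 29.2 ± 2.34 FPKM in P1 and 21.7 ± 3.93 in P7 (SD, n = 4), where it was not called (log2 difference -0.43, limma adjusted p = 0.244). Of the tested loci with a symbol, 2.69% lay wholly below P1 on that scale. The part of these cell types in the levels of the noncoding RNAs was not tested.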

How the data were processed

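Whole hearts of 4 P1 and 4 P7 mice were measured by RNA-seq, 1 library per heart. The deposited values are FPKM per locus, for which the authors had the bioinformatic work done by a company, on GRCm38. The aligner, the counting and its strand setting are not given in the sources used here. The paper reports the total of sequenced reads and a mapping summary for each sample, which were not used. Fragment counts were not used either, so the number of fragments behind a value and its error are unknown. In the files, 0 columns belonged to samples of other series.

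A locus was tested where any heart reached 1 FPKM, on log2(FPKM + 1), a scale that understates changes of low loci, with limma 3.58.1 in R 4.3.3 (eBayes with trend, no covariate, thresholds 0.05 and 1.5-fold). Single values were compared with a two-sided exact permutation test over 70 assignments. Tables were made in Python 3.11.15 with pandas 2.3.3, numpy 2.4.6, scipy 1.17.1 and matplotlib 3.10.9. The scripts were tested on simulated data.

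Symbols were split at commas and matched ignoring case, taking the locus of highest mean FPKM. A value can therefore be that of a locus that carries other symbols too, as for Egfl7 and Sfpq. List genes without a locus were looked up by RefSeq synonym where the positions overlapped, then by position where a clone-named locus covered them, a step added after the tables were seen. The members and lists were chosen with earlier results of these data known. Named in the text are the 8 RNAs, for each list up to 4 called genes of largest change or else the 2 of highest level, the 3 closest loci per RNA by Pearson correlation, and the 2 highest loci within a member's span. Each alternative judged the fold on its own values. Alternatives were other pseudocounts, filters, scalings, weights, GC correction by lowess (span 0.3, transcript GC from GENCODE M21 for 85.9% of tested loci with a symbol), a replicate block and each heart left out. Same-numbered hearts were not paired: the labels tie no number to a litter or day, and the correlations of their deviations were 0.06, 0.22, -0.28 and -0.12.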

Additional observations from a re-analysis of the deposited data

How the results depend on the processing

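The direction held under all 19 alternatives for Malat1 (-0.58 to -0.077), Gas5, Snhg1 and Tug1 (-0.70 to -0.16, log2). Tug1 became differentially expressed after median-ratio scaling (-0.67) and quantile normalization (-0.70), so the count of called RNAs among the 7 tested was 1 in both and 0 under each other alternative. Neat1 turned to 0.11 with GC correction, Zfas1 to 0.032 with sample quality weights and 0.10 with GC correction, and Snhg12 to -0.078 with median-ratio scaling, -0.081 with quantile normalization and -0.017 with scaling to the total of loci with a symbol, none of them past the threshold. Leaving out 1 heart moved Neat1 between -0.15 and 0.18, Snhg12 between -0.020 and 0.40, Zfas1 between -0.15 and 0.077, Tug1 between -0.51 and -0.31 and Snhg1 between -0.68 and -0.041. Summing loci of 1 symbol changed nothing for the 5 RNAs matched by symbol, since each had 1 locus.

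Of all tested loci, 1650 were called. The count was 260 without a filter, 2711 with 1 FPKM required in every heart, 2522 with median-ratio scaling, 701 with scaling to the total of loci with a symbol, 3697 with sample quality weights, 1079 without trend and 491 with GC correction, and 199 (without P1 replicate 2) to 3379 (without P1 replicate 4) with 1 heart left out. With the replicate block, 1283 were called, and the call of none of the 7 tested RNAs changed, while Pvt1 lost its call. The genes of the lists, cell type markers included, had 11 calls. These were 4 of 6 fibroblast, 3 of 6 endothelial, 1 of 6 mural, 1 of 6 leukocyte and 1 of 4 nerve markers tested. Pvt1, of the 15 other long noncoding RNAs tested, was the remaining call, and no other list had one. Of all tested loci with a symbol, 8.14% were called. For the lists the calls under other settings follow, with those over all tested loci with a symbol in brackets. There were 3 without a filter (231 of 39614) and 25 with 1 FPKM in every heart (2573 of 12730). Median-ratio scaling gave 24 (2107 of 17960) and quantile normalization 22 (1972 of 17960). Sample quality weights gave 28 (2951 of 17960) and GC correction 5 (408 of 17960). Leaving out 1 heart gave 2 to 30, where the counts over loci with a symbol ran from 167 to 2835. The ratio of Neat1 to Malat1 kept its direction. The cause of these shifts was not tested. With 4 hearts per stage and no counts, differences inside the stated intervals could not be resolved.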
